A study of Mus musculus with 25 samples.

Results

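The genes described here are the nuclear genes for the subunits of mitochondrial oxidative phosphorylation, read by respiratory complex. They were chosen by symbol alone, as all names that begin with Nduf (a, b, c, s or v and a digit), Uqcr, Cox4 to Cox8 or Atp5, together with Sdha to Sdhd and Cyc1. The rule found 85 of 24015 gene symbols and used no measured value. They comprise 35 genes of complex I, 4 of complex II, 9 of complex III, 19 of complex IV and 15 of complex V, and 3 genes that share the names but encode no subunit (Ndufa4l2, Atp5s and Atp5sl). Ndufa4, named for complex I, was counted with complex IV, where its protein is now known to sit, as was Cox7a2l, a Cox7a relative that helps complexes III and IV associate.

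In oxidative phosphorylation, complex I (NADH dehydrogenase) and complex II (succinate dehydrogenase) pass electrons to ubiquinone, complex III passes them on to cytochrome c, and complex IV (cytochrome c oxidase) passes them to oxygen. Complexes I, III and IV pump protons out of the mitochondrial matrix, and complex V (ATP synthase) uses their return to make ATP. Most subunits are encoded in the nucleus, while a few core subunits of complexes I, III, IV and V are encoded in mitochondrial DNA. None of the mitochondrially encoded genes is listed in the tables used here.

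RNA sequencing covered mouse basal cell carcinomas and the ASZ001 line, grown from a mouse basal cell carcinoma. The tumour groups were 4 resistant and 4 sensitive tumours, from Ptch+/- mice on the C57BL6 strain that also carried p53 fl/fl and K14 Cre-ER and received a Smo inhibitor by gavage. K14 Cre-ER is a tamoxifen-inducible recombinase driven by a keratin 14 promoter, so p53 can be deleted in keratin 14 cells and their progeny only. The ASZ001 cells, which the labels call resistant, were treated with CCG-1423, an inhibitor of MRTF/SRF transcription, with vismodegib, an inhibitor of the Hedgehog receptor component Smo, or with vehicle, 3 libraries each. The labels give no doses, treatment times or ages. Each cell group is the same single line. The questions are whether transcripts of these subunits differ between resistant and sensitive tumours, and whether either compound changes them.

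Values are normalized counts, which are whole read counts divided by 1 size factor per library. They are not corrected for transcript length, so the level of a gene is compared between groups, and reads of 1 gene as a percent of another's are compared only between groups. Reads at genes numbered 17537094 to 20014426 in resistant libraries, 11125956, 9181841 and 8111252 in sensitive libraries 1 to 3 and 14161398 in sensitive library 4. Cell libraries had 30455530 to 44017757. Depth thus differed between the tumour groups, and its part in the tumour results was not tested. Sensitive tumour 4 stood apart from its group, with a mean correlation of log2 values over tested genes of 0.952 to resistant libraries and 0.828 to the other 3 sensitive libraries, so tumour results are given with and without it. All 10 basal keratinocyte and basal cell carcinoma markers, among them Krt5, Krt14 and Gli1, were detected in both tumour groups, and all but Hhip were detected in CCG-1423 and vehicle cells. Rn45s, the ribosomal RNA precursor, took 6.62% to 10.4% of reads in CCG-1423 cells, 1.39% to 1.58% in vismodegib cells and 5.81% to 6.70% in vehicle cells. In tumours it took 3.24% to 5.80% of reads in resistant and 2.71% to 3.36% in sensitive libraries. The labels do not say whether replicates came from separate animals or cultures, so p-values here measure only how these samples differ, and that spread may be technical.

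Taken as a share of all reads at genes, the 85 genes were lower in CCG-1423 cells than in the other cells. They took 0.793%, 0.832% and 0.864% of reads in the CCG-1423 libraries, 1.30%, 1.32% and 1.36% in the vismodegib libraries, and 1.24%, 1.24% and 1.23% in the vehicle libraries. In tumours they took 0.629%, 0.685%, 0.631% and 0.620% of reads in resistant tumours 1 to 4, against 0.416%, 0.377% and 0.362% in sensitive tumours 1 to 3 (sensitive tumour 4 had 0.788%). All 4 resistant tumours therefore lay above 3 of the sensitive tumours and below the fourth. For complex V, sensitive tumour 4 had 0.491% of reads, against 0.322% to 0.370% in resistant tumours. The complex V gene Atp5b alone had 45733 normalized counts there, against 23709 to 32412 in resistant tumours. Its shares for complexes I (0.130%), III (0.0427%) and IV (0.0819%) lay within the resistant range, and that for complex II (0.0322%) just above it. In these bulk samples, fewer cells of a type and less RNA per cell cannot be told apart.

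**Figure D1:**
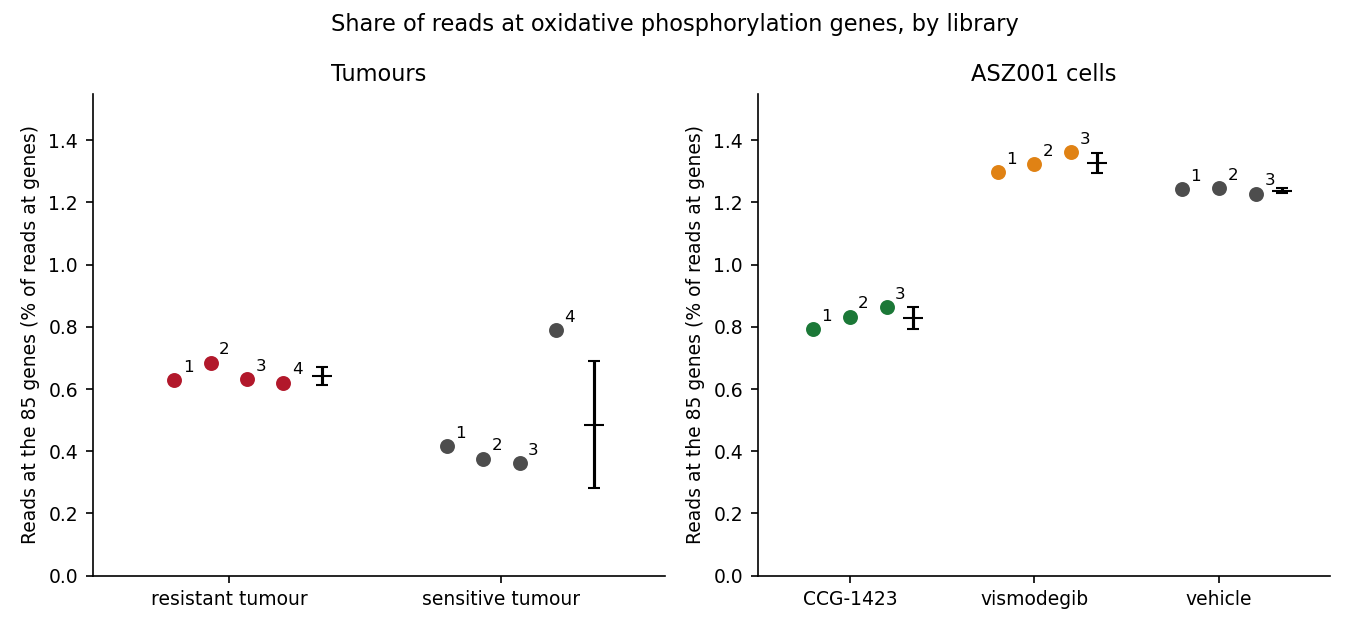
Share of reads at genes taken by the 85 oxidative phosphorylation genes, in percent, with 1 numbered point per library and the group mean ± SD beside the points (4 libraries per tumour group, 3 per cell group). The CCG-1423 libraries lie between 0.793% and 0.864%, below all vismodegib and vehicle libraries, and sensitive tumour 4 lies at 0.788%, above every other tumour.

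CCG-1423 lowered most transcripts of all 5 complexes in ASZ001 cells. Of 85 genes, 78 were abundant enough to test (at least 10 normalized counts in at least 3 libraries). By limma on log2(normalized count + 1), with Benjamini-Hochberg adjustment over all 12775 tested genes and a threshold of 0.05, 73 of the 78 fell, 3 rose and 2 did not pass. Over all tested genes 42.6% fell and 42.8% rose in this comparison. The median log2 fold change of the 78 was -0.61, against 0.00 over all tested genes. In 72 of the 78 genes all CCG-1423 libraries lay below all vehicle libraries, which was so for 42.8% of all tested genes. Uqcrq also fell but had overlapping groups. Falls of at least 2-fold were seen for 15 of the 78, and for 15.3% of all tested genes, so the share of large falls was near the background while the share that fell at all was not. In the same cells the summed basal keratinocyte and basal cell carcinoma markers were also lower, at 293810 to 306885 normalized counts with CCG-1423, against 1.36e+06 to 1.39e+06 with vehicle. The differentiated keratinocyte sum was 5900 to 6312 with CCG-1423, against 18227 to 19892 with vehicle, and the fibroblast sum, with Lum and Thy1 at 0 in both, was 103 to 126, against 176 to 205. Other sums were higher with CCG-1423 without overlap. The adipocyte sum was 2951 to 3216 with CCG-1423, against 1299 to 1345 with vehicle. Adipoq, Plin1, Fabp4 and Lep, each detected with vehicle, were nevertheless at 0 with CCG-1423. Cfd was at 0 in both and Ucp1 with vehicle. The macrophage sum was 960 to 1115 with CCG-1423, against 556 to 594 with vehicle, with C1qa, C1qb and C1qc at 0 in both, and the neutrophil sum was 111 to 149, against 49.0 to 75.1. Retnlg was at 0 in both and S100a9 with vehicle. The endothelial sum was 2756 to 2989 with CCG-1423, against 2640 to 2732 with vehicle, with Kdr and Tie1 at 0 in both. The lymphocyte sum was under 5 normalized counts in every library. Malat1 took 0.134% to 0.174% of reads with CCG-1423 and 0.0695% to 0.0800% with vehicle. The part of these differences in the result was not tested.

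Of the 7 untested genes, 6 are minor or tissue-restricted forms of complex IV subunits (Cox4i2, Cox6b2, Cox7a1, Cox7b2, Cox8b and Cox8c), which had few or no reads in ASZ001 cells. The other, Ndufs5, a complex I subunit, was listed at 0 in all 8 tumour and 9 cell libraries. Its level is therefore unknown here.

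Complex I takes electrons from NADH. In CCG-1423 cells 32 of its 34 tested genes fell, with a median of -0.51. Its 7 tested core subunits, which carry the flavin and iron-sulphur centres and the quinone site, all fell (median -0.47), as did 25 of 27 accessory subunits (median -0.53). The largest fall was that of Ndufc1, a small accessory subunit of the membrane arm. Ndufc1 had 516, 520.0 and 511 normalized counts in the CCG-1423 libraries, against 1939.9, 1983 and 1840.3 in the vehicle libraries. The groups were far apart, with a log2 fold change of -1.89 ± 0.04 (SE) and an adjusted p of 1.2e-15 by limma. Among the core subunits, Ndufs1, which holds iron-sulphur centres of the NADH arm, fell by 0.82 on the log2 scale, and Ndufv1, the flavin subunit, by 0.52. The exceptions were Ndufs6 and Ndufa6, both accessory subunits. Ndufs6 had 1676, 1675 and 1741 normalized counts in the CCG-1423 libraries, against 1666, 1771 and 1720.3 in the vehicle libraries, and Ndufa6 had a log2 fold change of 0.05 with a 95% interval of -0.04 to 0.14.

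Complex II oxidizes succinate and is also an enzyme of the tricarboxylic acid cycle. All 4 of its genes fell, with a median of -0.59. The membrane anchor gene Sdhc fell the most, with 3212, 3023 and 3210.0 normalized counts in the CCG-1423 libraries, against 5586, 5615 and 5593 in the vehicle libraries (log2 fold change -0.83 ± 0.03 (SE), limma adjusted p = 1.8e-12). The flavoprotein gene Sdha fell by 0.76, the iron-sulphur subunit gene Sdhb by 0.42 and the second anchor gene Sdhd by 0.28 on the log2 scale.

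Complex III hands electrons to cytochrome c, and all 9 of its genes fell (median -0.61). Uqcr11, its smallest accessory subunit, had 1098, 1123 and 1202 normalized counts in the CCG-1423 libraries, against 3148, 3154 and 3120.3 in the vehicle libraries. That is a log2 fold change of -1.46 ± 0.04 (SE), with a limma adjusted p of 4.3e-14. Among the larger subunits, the core protein gene Uqcrc1 fell by 1.07, the Rieske iron-sulphur protein gene Uqcrfs1 by 0.61 and cytochrome c1 (Cyc1) by 0.31 on the log2 scale. The smallest fall was that of Uqcrq, a ubiquinone-binding subunit, at -0.09 ± 0.03 (SE, limma adjusted p = 0.018).

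In complex IV, 11 of 13 tested genes fell and 2 rose, with a median of -0.61. Cox7b, a small structural subunit, fell the most, with 1093, 1171 and 1247 normalized counts in the CCG-1423 libraries, against 3047, 3050.2 and 3003 in the vehicle libraries (log2 fold change -1.38 ± 0.04 (SE), limma adjusted p = 7.5e-14). The regulatory subunit gene Cox4i1 fell by 0.30, Cox5a by 0.51, the zinc-binding subunit gene Cox5b by 0.90 and Ndufa4 by 0.61 on the log2 scale. Of the genes that rose, Cox7a2l had 8628, 9731 and 9986 normalized counts in the CCG-1423 libraries, against 5739.7, 5792 and 5859 in the vehicle libraries, a log2 fold change of 0.70 ± 0.04 (SE). Its relative Cox7a2, a structural subunit, fell by 0.97.

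The largest rise of all was that of Cox6a2, the form of subunit 6a used in heart and skeletal muscle. Cox6a2 had 125, 96.0 and 108 normalized counts in the CCG-1423 libraries, against 0.8, 1.1 and 2.3 in the vehicle libraries and 1.1, 1.9 and 2.0 in the vismodegib libraries. It entered the test only through the CCG-1423 group. Summed over libraries these were 340 reads with CCG-1423 and 4 with vehicle, a ratio of normalized counts of 82.8 with a 95% counting interval of 32.0 to 306. Its common counterpart Cox6a1 fell by 0.75 on the log2 scale in the same cells, and the reads of Cox6a2 equalled 1.23% to 1.67% of those of Cox6a1 with CCG-1423 and 0.00630% to 0.0172% with vehicle. Summed over 14 skeletal muscle markers, the cells had 186 to 255 normalized counts with CCG-1423 and 232 to 251 with vehicle, so the summed muscle list overlapped between the groups while Cox6a2 did not. Tnnt3 and Pvalb were at 0 in both groups and Myh4 with CCG-1423.

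Complex V makes ATP, and all 15 of its genes fell (median -0.72). The 5 genes of the catalytic F1 head had a median of -0.63 and the 10 genes of the membrane sector and stalk one of -0.81. Of the head, the alpha subunit gene Atp5a1 fell by 0.89 and the catalytic beta subunit gene Atp5b by 0.63 on the log2 scale. The 3 genes Atp5g1, Atp5g2 and Atp5g3 encode the same mature protein of the rotating c ring, and they fell by different amounts. Atp5g3 had 4527, 4677 and 4467 normalized counts in the CCG-1423 libraries, against 11854, 12138 and 12238 in the vehicle libraries (log2 fold change -1.41 ± 0.03 (SE), limma adjusted p = 1.2e-15). Atp5g1 fell by 0.88 and Atp5g2 by 0.32 on the log2 scale.

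The 3 genes with matching names but no subunit moved in different directions. Ndufa4l2, a relative of Ndufa4 that is known as a hypoxia-induced gene, had 0, 4.3 and 0 normalized counts in the CCG-1423 libraries, against 70.2, 68.1 and 91.7 in the vehicle libraries and 91.7, 89.0 and 77.7 in the vismodegib libraries. It was close to undetected with CCG-1423, with 5 reads over 3 libraries against 231 with vehicle, a ratio of 0.0211 with a 95% counting interval of 0.00678 to 0.0499. Atp5s fell by 1.22 on the log2 scale, and Atp5sl, which is known to help assemble complex I, rose by 0.39.

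**Figure D2:**
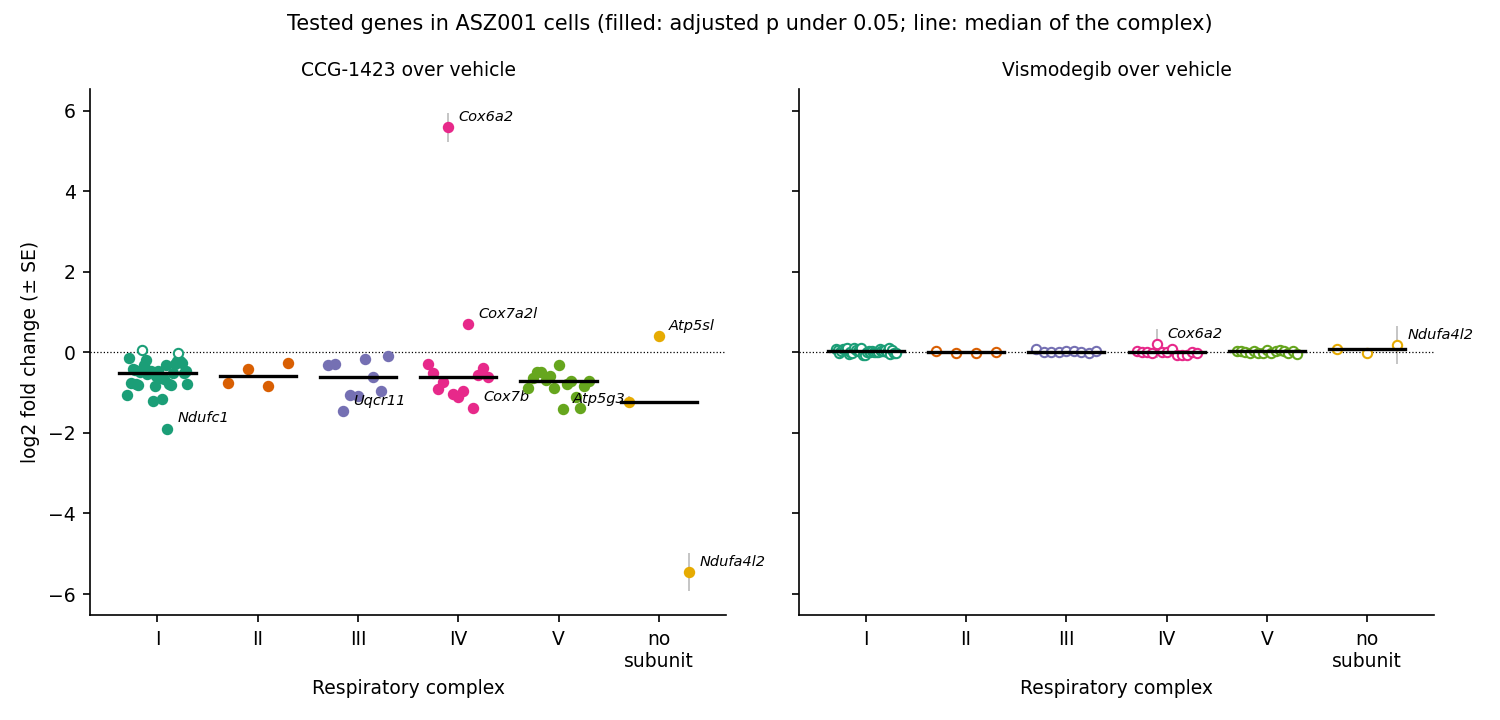
Log2 fold change (± SE) of each tested gene in ASZ001 cells by respiratory complex, for CCG-1423 over vehicle and vismodegib over vehicle, which share the vehicle libraries. Points are genes, filled where the limma adjusted p is under 0.05, and lines are medians, which lie at -0.51 to -0.72 for complexes I to V with CCG-1423 and near 0 with vismodegib.

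Promoter sequence was available for 69 of the 85 genes, as 250 bases before and 50 after the start in RefSeq (GRCm38.p6), 66 matched by symbol and 3 by synonym. The 250 bases before the start were searched on both strands for letters bound by known regulators of mitochondrial genes, by SRF and by C/EBP-ATF factors. The NRF1 letters (GCGCA, any base, then GCGC) were in 13 of the 69 (18.8%) and in 4.23% of all 27025 genes with a promoter. They were in 11 of the 60 that fell with CCG-1423 (18.3%). The windows of these genes were also richer in G and C, with a median of 56.0% against 52.4% over all windows. The YY1 letters AAGATGGC were in 2 genes (2.90%, against 1.83% of all genes), the ETS letters ACCGGAAG in 3 (4.35%, against 1.95%) and the ERR letters TCAAGGTCA in 1 (1.45%, against 0.422%). The CArG box, to which SRF binds, was in 0 of 69 and in 1.62% of all genes, and TGATGNAAT, the letters of C/EBP-ATF sites, were in 0 of 69 and in 0.910% of all genes.

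The NRF1 letters stood in promoters of genes that fell strongly, fell weakly or did not pass, as in the 6 stretches shown, which were chosen after their values were seen. Each runs 5′ to 3′ on the strand of its gene, with the NRF1 letters in capitals (their reverse complement in Ndufs6). Log2 fold changes with CCG-1423 were -1.39 for Atp5k, -0.76 for Ndufa11, -0.76 for Sdha, -0.75 for Cox6a1, -0.32 for Atp5g2 and -0.02 for Ndufs6.
Atp5k (chr5:108434415-108434474, minus strand): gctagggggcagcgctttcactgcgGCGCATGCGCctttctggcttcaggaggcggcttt
Ndufa11 (chr17:56717677-56717736, plus strand): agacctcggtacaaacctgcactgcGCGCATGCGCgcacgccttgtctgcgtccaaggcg
Sdha (chr13:74350304-74350363, minus strand): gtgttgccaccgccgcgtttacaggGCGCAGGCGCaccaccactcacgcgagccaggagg
Cox6a1 (chr5:115349086-115349145, minus strand): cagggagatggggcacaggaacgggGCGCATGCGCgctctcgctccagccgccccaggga
Atp5g2 (chr15:102671055-102671114, minus strand): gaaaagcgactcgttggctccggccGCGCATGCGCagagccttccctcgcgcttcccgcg
Ndufs6 (chr13:73328483-73328523, minus strand): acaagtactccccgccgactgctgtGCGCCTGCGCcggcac
Atp5k and Atp5g2 both encode membrane-sector subunits of ATP synthase and carry the same 10 letters, 50 and 42 bases before the start, yet fell by different amounts. A match of letters is a description of the sequence and not evidence of binding.

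Other genes of mitochondrial energy metabolism changed in both directions with CCG-1423, where 42.6% of all tested genes fell and 42.8% rose. Of 18 tested tricarboxylic acid cycle genes 14 fell and 3 rose (median -0.54), with Idh2, mitochondrial isocitrate dehydrogenase, lowest by p at -1.81 ± 0.04 (SE). Of 20 glycolysis and pyruvate genes 18 fell and 2 rose (median -0.97). Pdk1, which restrains pyruvate entry into mitochondria, fell by 1.59, the glucose transporter gene Slc2a1 fell by 1.30 and the hexokinase gene Hk2 rose by 1.35 on the log2 scale. Of 77 mitochondrial ribosome genes 32 fell and 29 rose (median -0.02), shares close to those of all tested genes. Of 23 import and chaperone genes 11 fell and 10 rose, and the mitochondrial protease gene Lonp1 rose by 1.38.

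Assembly factors also changed in both directions, as did all tested genes, of which 42.6% fell and 42.8% rose. Of 14 complex I assembly genes 9 fell and 3 rose, of 7 for complexes II and III 4 fell and 2 rose, of 25 for complex IV 16 fell and 7 rose, and of 5 for complex V 3 fell and 1 rose. Pet100, a complex IV assembly factor, fell by 1.96, and Lyrm7, which helps insert the Rieske protein into complex III, fell by 2.23 on the log2 scale. Of 17 electron carrier genes 10 fell and 6 rose. Cytochrome c (Cycs), the carrier between complexes III and IV, averaged 6543 ± 363 normalized counts with CCG-1423 and 11962 ± 267 with vehicle (SD, n = 3 each).

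Of 18 tested regulators of mitochondrial biogenesis, 12 rose and 4 fell with CCG-1423 (median 0.33), where 42.8% of all tested genes rose and 42.6% fell. The coactivator gene Ppargc1a (PGC-1 alpha) averaged 2215 ± 117 normalized counts with CCG-1423 and 4196 ± 149 with vehicle (SD, n = 3 each), a log2 fold change of -0.92 ± 0.04 (SE). Its nuclear receptor partner gene Esrra fell by 0.71 on the log2 scale, and the mitochondrial transcription factor gene Tfb2m averaged 653 ± 90.9 normalized counts with CCG-1423 and 1299 ± 30.1 with vehicle (SD, n = 3 each). The other coactivator gene Ppargc1b rose by 2.76, Nrf1 by 1.01 and the GABP subunit gene Gabpb1 by 0.92. Regulators with binding letters in the promoters above thus moved in both directions.

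Vismodegib left these transcripts close to vehicle. By limma 0 of the 78 tested genes passed in either direction, 7 had an unadjusted p under 0.05 (2357 of all 12775 tested genes), and edgeR and DESeq2 on the recovered reads also called 0. Over all tested genes 1.58% rose and 3.92% fell. The median log2 fold change was 0.01 for the 78 genes and 0.01 for all tested genes. Leaving out Cox6a2, Ndufa4l2 and Atp5s, which had low values, the 95% intervals of the other 75 genes all lay between -0.19 (Ndufb3) and 0.22 (Ndufs7) on the log2 scale, which is 0.878-fold to 1.17-fold. Changes beyond these limits were outside every gene's own interval.

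By complex, the genes of smallest p with vismodegib were Ndufa8, Sdha, Cyc1, Cox7a2 and Atp5j. Ndufa8, an accessory subunit of complex I, had 2844, 2921 and 2864 normalized counts in the vismodegib libraries, against 2757, 2622 and 2698 in the vehicle libraries. The groups did not overlap, but the log2 fold change of 0.10 ± 0.04 (SE) did not pass (limma adjusted p = 0.15). Sdha (0.04), Cyc1 (0.08), Cox7a2 (0.08) and Atp5j (0.05) had smaller log2 fold changes. When libraries were scaled to equal totals, 27 of the 78 genes passed as higher with vismodegib, as did 2923 of all 12775 genes. Leaving Rn45s out of those totals, a setting chosen after seeing the data, brought the members passing to 0. Among other energy genes, Hk2 fell by 0.35 and Slc2a1 and Ldha, the lactate dehydrogenase A gene, rose by 0.22 and 0.17 on the log2 scale with vismodegib, and Idh2 fell by 0.16.

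Set directly against vismodegib, CCG-1423 gave the same picture. It lowered 73 of the 78 genes and raised 3, where 42.4% of all tested genes fell and 42.4% rose, with a median log2 fold change of -0.61. Ndufc1 (-1.89), Sdhc (-0.81), Uqcr11 (-1.47), Cox7b (-1.31) and Atp5g3 (-1.39) again had the largest falls in their complexes. The comparisons of CCG-1423 with vehicle and with vismodegib share the CCG-1423 libraries, so they are not independent.

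In the tumours, the 85 genes were on balance higher in resistant than in sensitive libraries, but with all 8 libraries none passed the test. Of 80 tested genes (at least 10 normalized counts in at least 4 libraries), 72 had a positive and 8 a negative log2 fold change, with a median of 0.58 against 0.03 over all tested genes. By limma 0 of 80 passed, the smallest adjusted p being 0.13. A total of 35 had an unadjusted p under 0.05, as did 3789 of all 15076 tested genes. edgeR on the recovered reads called 0 and DESeq2 called 9 higher of its 521 over all genes (Atp5l, Atp5o, Cox6a1, Cox6b1, Cox8a, Ndufb2, Ndufc1, Ndufs4 and Uqcrb). Over all 15076 tested genes only 0.0332% rose and 0.0796% fell.

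Median log2 fold changes with all 8 libraries were 0.40 for complex I, 0.06 for II, 0.54 for III, 0.68 for IV and 0.72 for V. The genes of smallest p per complex show how the libraries fell. Cox6b1, a complex IV subunit on the intermembrane space side, had 876, 775, 918 and 622 normalized counts in resistant tumours 1 to 4, against 398, 322, 392 and 573 in sensitive tumours 1 to 4. The groups did not overlap, with a log2 fold change of 0.94 ± 0.21 (SE, limma adjusted p = 0.13). Atp5l, the g subunit of ATP synthase, had 1439, 1489, 1446 and 1067 normalized counts in resistant tumours, against 518, 418, 426 and 1063 in sensitive tumours (log2 fold change 1.27 ± 0.30 (SE), limma adjusted p = 0.13). Here sensitive tumour 4 lay just under the lowest resistant tumour. The complex I genes behaved alike for Ndufs4, an accessory subunit near the NADH arm, with 638, 428, 409.8 and 358 normalized counts in resistant tumours, against 234, 211, 179 and 354 in sensitive tumours.

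Uqcrfs1, the Rieske protein gene, had 567, 484, 412 and 407 normalized counts in resistant tumours, against 197, 198, 187 and 443 in sensitive tumours. Sdhd of complex II had 1211, 1405, 1028 and 1455 normalized counts in resistant tumours, against 704, 581, 404 and 1698 in sensitive tumours. In both genes sensitive tumours 1 to 3 were low, while sensitive tumour 4 lay within or above the resistant range. Across the 80 genes, sensitive tumour 4 lay above sensitive tumours 1 to 3 in 63 (78.8%), which was so for 41.6% of all tested genes, and it was the highest of all 8 libraries in 14 (17.5%), against 13.7% of all tested genes.

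Without sensitive tumour 4, 48 of the 80 genes rose in resistant tumours and 1 fell, where 20.6% of all 15479 tested genes rose and 19.4% fell (limma, adjusted over all tested genes). The median log2 fold change was 0.68, against 0.02 over all tested genes. In 47 of the 80 all resistant tumours lay above sensitive tumours 1 to 3, which was so for 24.3% of all tested genes. edgeR without that tumour, a setting chosen after seeing the data, also called 48 higher, and 0 lower. The difference between 0 and 48 calls thus rested on that 1 library. It was singled out after seeing the data, by its likeness to the resistant tumours. Leaving it out for that reason favours more calls and smaller p-values. All calls and p-values without it, here and below, are therefore descriptive only.

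**Figure D3:**
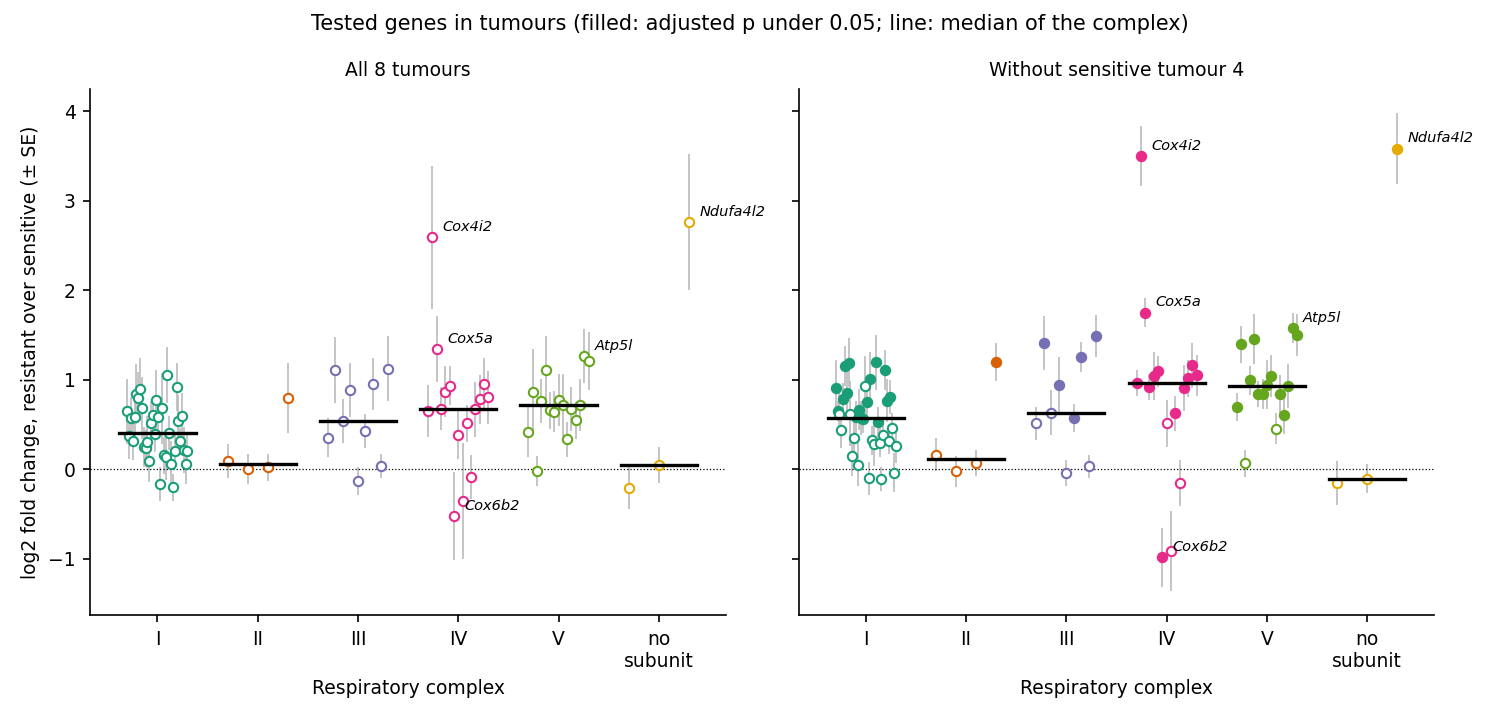
Log2 fold change (± SE) of each tested gene, resistant over sensitive tumours, by respiratory complex, with all 8 libraries and without sensitive tumour 4. Filled points have a limma adjusted p under 0.05 and lines are medians, with 0 filled points of 80 with all 8 libraries and 49 without sensitive tumour 4.

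The complexes differed in how many of their genes passed without sensitive tumour 4. In complex V 13 of 15 rose (median 0.93) and in complex IV 11 of 15 rose and 1 fell (median 0.96). In complex III 5 of 9 rose (median 0.63), in complex I 17 of 34 (median 0.58) and in complex II 1 of 4 (median 0.12). Within complex I, 16 of 27 accessory subunits and 1 of 7 core subunits passed. That core subunit was Ndufs8, which holds iron-sulphur centres. Whether the complexes differ from each other was not tested.

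Without sensitive tumour 4, Ndufs8 rose by 0.81 on the log2 scale, and the larger subunits of complexes I and II chosen by rule did not pass. Their log2 fold changes were 0.30 for Ndufs1, 0.46 for Ndufv1, 0.16 for Sdha and -0.02 for Sdhb, and none of these passed. In complex III, Uqcrfs1 rose by 1.25, while Uqcrc1 (-0.04) and Cyc1 (0.51) did not pass. In complex IV, Cox5a rose by 1.75, Cox4i1 by 0.96 and Cox5b by 0.92, and in complex V Atp5b rose by 1.40 and Atp5a1 by 0.70 on the log2 scale.

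The largest rises in complexes I, II, III and V without sensitive tumour 4 were those of Ndufc1, Sdhd, Uqcrq and Atp5l. Uqcrq had 674, 604, 691 and 386 normalized counts in resistant tumours, against 201, 177 and 240.1 in sensitive tumours 1 to 3, and sensitive tumour 4 had 556. Its log2 fold change was 1.49 ± 0.23 (SE, limma adjusted p = 0.0018). Ndufc1 had 441, 447, 524 and 207 normalized counts in resistant tumours, against 175, 149.8 and 176 in sensitive tumours 1 to 3 (sensitive tumour 4 had 248). Without that tumour its log2 fold change was 1.20 ± 0.31 (SE), with a limma adjusted p of 0.016.

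The minor forms of complex IV subunits moved in both directions. Cox4i2, a form of subunit 4 known from lung and from hypoxic cells, had 318, 339, 328 and 188 normalized counts in resistant tumours, against 31.1, 31.1 and 14.9 in sensitive tumours 1 to 3 (sensitive tumour 4 had 311). Without that tumour its log2 fold change was 3.50 ± 0.33 (SE, limma adjusted p = 2.5e-04), and with all 8 it was 2.59 ± 0.80 (limma adjusted p = 0.14). Reads of Cox4i2 equalled 11.9% to 20.6% of those of Cox4i1 in resistant tumours and 1.71% to 4.11% in sensitive tumours 1 to 3, not corrected for length, with sensitive tumour 4 inside the resistant range. In ASZ001 cells Cox4i2 had 0 reads in every library but 1, vehicle 1, with 0.8 normalized counts.

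Cox6b2, a form of subunit 6b known from testis, ran the other way. It had 39.3, 49.6, 68.2 and 26.5 normalized counts in resistant tumours, against 92.1, 89.0 and 79.5 in sensitive tumours 1 to 3 (sensitive tumour 4 had 23.3). Without that tumour it fell by 0.98 on the log2 scale (SE 0.33, limma adjusted p = 0.043), and edgeR did not call it. Cox6a2, the muscle form that rose with CCG-1423 in cells, had 15.7, 1.5, 11.1 and 2.8 normalized counts in resistant tumours, against 0, 0, 0 and 1.0 in sensitive tumours, too few to test.

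Ndufa4l2 had the largest difference of all 80 genes. It had 1583, 1390.2, 2551 and 642 normalized counts in resistant tumours, against 96.7, 127 and 121 in sensitive tumours 1 to 3 (sensitive tumour 4 had 1109). Without that tumour its log2 fold change was 3.58 ± 0.40 (SE, limma adjusted p = 4.5e-04), and with all 8 it was 2.76 ± 0.76 (limma adjusted p = 0.14). Its relative Ndufa4 rose by 1.05 without sensitive tumour 4.

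**Figure D4:**
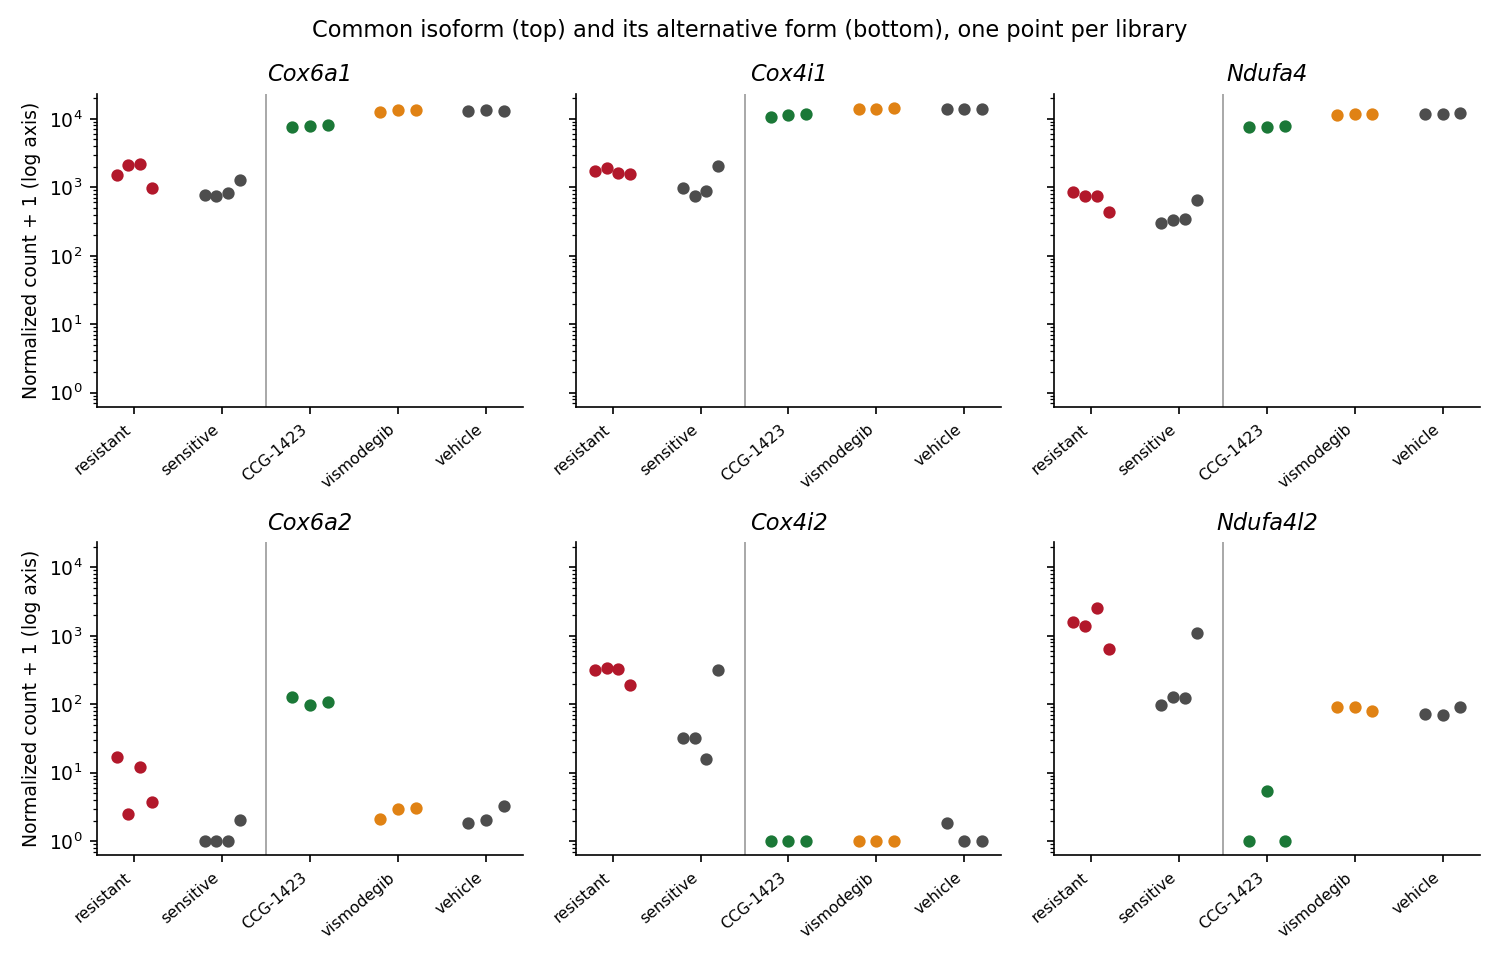
Normalized count + 1 on a log axis, 1 point per library, for Cox6a1, Cox4i1 and Ndufa4 (top) and their alternative forms Cox6a2, Cox4i2 and Ndufa4l2 (bottom), in resistant and sensitive tumours left of the line and CCG-1423, vismodegib and vehicle cells right of it. Cox6a2 is at 96.0 to 125 normalized counts in CCG-1423 cells and near 1 in the other cells, and Ndufa4l2 and Cox4i2 are low in 3 of the 4 sensitive tumours.

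Markers of other cell types moved with the tumour groups and with sensitive tumour 4. Summed over 7 neutrophil markers, resistant tumours had 8679, 9122, 10509 and 13198 normalized counts, against 1299.5, 786 and 856 in sensitive tumours 1 to 3 (sensitive tumour 4 had 22627). Over 14 skeletal muscle markers the sums were 1839.7, 622, 462 and 349 in resistant tumours, against 170, 137 and 113 in sensitive tumours 1 to 3 (sensitive tumour 4 had 488), with Myh2 and Pvalb at 0 in all sensitive tumours. Des, Tnnt3, Tnni2 and Myh1 were higher in every resistant tumour than in sensitive tumours 1 to 3. Myh1 was, however, only 3.96 and 2.09 in resistant tumours 3 and 4. Acta1, Ckm, Myh2, Myh4, Tnnc2, Mylpf, Pvalb, Atp2a1, Mb and Casq1 did not separate these tumours. Over the 10 basal keratinocyte and basal cell carcinoma markers the sums were 90936, 64182, 99995 and 39317 in resistant tumours, against 156071, 202441, 228272 and 90133 in sensitive tumours 1 to 4. Krt5, Krt14, Krt15, Trp63 and Itga6 were lower in every resistant tumour than in sensitive tumours 1 to 3. Gli1, Ptch1 and Hhip ran the other way. Gli1 had 2096, 1456, 3541 and 2428 normalized counts in resistant tumours, against 532, 544 and 649 in sensitive tumours 1 to 3. Itgb4 was also higher in resistant tumours 1 to 3, and Col17a1 overlapped. All 3 sums thus placed sensitive tumour 4 within or beyond the resistant range. Malat1, a nuclear transcript, took 1.30% to 1.69% of reads in resistant tumours, 2.89% to 3.20% in sensitive tumours 1 to 3 (sensitive tumour 4 had 1.31%). The sums of a further 3 lists also separated resistant tumours from sensitive tumours 1 to 3, with sensitive tumour 4 inside the resistant range in each. Endothelial markers summed to 3097 to 5766 in resistant tumours, against 2620, 2755 and 2706 in sensitive tumours 1 to 3 and 3498 in the fourth. Pecam1, Cdh5, Flt1, Tie1 and Emcn were higher in every resistant tumour than in sensitive tumours 1 to 3. Vwf and Eng were instead lower in resistant tumours 1 to 3, and Tek and Kdr overlapped. Differentiated keratinocyte markers summed to 548 to 5256 in resistant tumours, against 6264, 10164 and 9588 in sensitive tumours 1 to 3 and 2482 in the fourth. Klk7, Sbsn, Krt10, Cdsn, Krt1 and Krt2 were lower in every resistant tumour than in sensitive tumours 1 to 3, while Lor was higher. Krtdap had 2471, 1649, 4400 and 160 normalized counts in resistant tumours, against 302, 350 and 253 in sensitive tumours 1 to 3, and Ivl overlapped. Sperm markers summed to 48.1 to 222 in resistant tumours, against 12.7, 17.0 and 28.2 in sensitive tumours 1 to 3 and 199 in the fourth. That sum was mostly 1 gene, Prm1. It had 115, 43.7, 220 and 180 normalized counts in resistant tumours, against 11.5, 9.9 and 23.2 in sensitive tumours 1 to 3. Odf1 and Pgk2 were at 0 in both groups, Prm2 and Tnp1 were at most 1.7, and Ldhc overlapped. The adipocyte, blood, macrophage, fibroblast and lymphocyte sums overlapped between resistant tumours and sensitive tumours 1 to 3. Single markers of these lists still separated them in both directions. Fbn1, Pdgfrb, Cd14 and Fabp4 were higher in every resistant tumour, as were Cd3d and Cd3e at low counts. Dcn, Cidea and Cd79b were lower, as was Lep at low counts. The blood sum was nearly all Alas2, with 6 haemoglobin genes at 0 in both groups, so blood content is unknown here. The part of cell make-up and RNA composition in the subunit differences was not tested.

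Neighbouring pathways in the tumours showed the same dependence on sensitive tumour 4. With all 8 libraries no gene of the lists passed. Without sensitive tumour 4, 15 of 21 glycolysis and pyruvate genes rose and 2 fell (median 1.98), where 20.6% of all tested genes rose and 19.4% fell. The glycolytic enzyme gene Gapdh rose by 2.84 and the lactate exporter gene Slc16a3 by 3.55. Of 77 mitochondrial ribosome genes 29 rose and 2 fell (median 0.45), of 18 tricarboxylic acid cycle genes 6 rose and 1 fell (median 0.41), and citrate synthase (Cs) rose by 1.48. Of 25 complex IV assembly genes 5 rose and 3 fell, with Higd1a, a hypoxia-inducible complex IV factor, up by 2.82 and Cox20 down, at a log2 fold change of -1.47. Of 19 biogenesis regulators 3 rose and 2 fell, with log2 fold changes from -3.80 to 2.31 and a median of 0.03. The shares of complex IV assembly genes and of regulators that rose or fell were thus close to or under those of all tested genes. Ppargc1a averaged 382 ± 237 normalized counts in the 4 resistant tumours and 67.9 ± 14.7 in sensitive tumours 1 to 3 (SD, n = 3), a log2 fold change of 2.31 ± 0.42 (SE).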

How the data were processed

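RNA was sequenced in 8 tumour and 9 ASZ001 libraries as paired-end reads, and the 8 exome samples were not analysed here. Both deposited tables hold a signal value per gene symbol, the normalized count, made by the authors from whole reads and 1 size factor per library, each table separately. Per the submitters' processing notes, the tools were TopHat and DESeq and the build was mm9, with no role or version stated. The gene counter, strand setting and treatment of reads that match processed pseudogenes, which many of these genes have, were not stated there or in the labels. Dividing each library by its smallest value returned whole reads for 100% of values within 0.01 read.

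Tests used limma 3.58.1 (R 4.3.3) on log2(normalized count + 1) with a variance trend, 2-sided, on genes with at least 10 normalized counts in 4 tumour or 3 cell libraries. Fold changes are on that scale, which understates changes of low genes. P-values were adjusted by Benjamini-Hochberg over all tested genes. The cell fit held all 9 libraries. edgeR 4.0.16 (quasi-likelihood) and DESeq2 1.42.0 on the recovered reads, other scalings, pseudocount and filter, a fit of 2 groups only, a replicate block and leaving out each library were tried. The limma script was tested on simulated data.

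Per complex, the called genes with the largest rise and fall (mean of at least 50 normalized counts), or else the gene of smallest p, are given by library, with fixed core subunits and isoform pairs and up to 3 called genes of smallest p per neighbouring list. Genes named beyond that rule, where a count is small, were chosen after their values were seen. Values of 1 core subunit are not reported here. The members, lists and tests were chosen with earlier results of these data known. Intervals on read ratios cover counting error only, since reads carry no molecular identifiers. Replicate numbers are shared across groups, but deviations of same-numbered libraries correlated at -0.15 to 0.12, so they were not taken as pairs. Promoter sequences are from RefSeq (GRCm38.p6), not from the build of the counts.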

Additional observations from a re-analysis of the deposited data

Results flagged for a closer look

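Among 64 groups of 4 tumours examined for a single library far from the other 3, 18 held one (gap over range above 0.829). Chance gives about 1 in 20 for a single group. The groups share the same 8 libraries, so that rate gives no expectation for the count. They also cover chosen members only, some named because they passed without sensitive tumour 4. The share over all tested genes was not computed. In 15 the library was sensitive tumour 4. The 85 genes took 0.788% of its reads, against 0.362% to 0.416% in the other sensitive tumours. Its normalized counts stood above theirs for Atp5a1 (9725), Atp5b (45733), Atp5g3 (1984), Atp5l (1063) and Cox4i2 (311). The same held for Cox5a (872), Cox5b (781), Cox6a1 (1268), Cox8a (834) and Cyc1 (979). Ndufa4 (647), Ndufa4l2 (1109), Uqcrfs1 (443) and Uqcrq (556) complete these genes. In the resistant group, tumour 2 had the highest share of reads at the 85 genes (0.685%, against 0.620% to 0.631% in the others). Resistant tumour 4 was lowest for Atp5l (1067 normalized counts, against 1439 to 1489) and for Cox4i2 (188, against 318 to 339).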

How the results depend on the processing

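The direction of every called gene followed across settings, and of the member medians, held under the settings tried, except the vismodegib median, which lay near 0 and changed sign without vismodegib replicate 3. In tumours, the higher calls were 0 by limma, 9 by DESeq2, and 48 by edgeR without sensitive tumour 4 (chosen after seeing the data). Leaving out 1 library at a time gave 0 to 48 higher and 0 to 1 lower, both extremes without sensitive tumour 4, and medians of 0.49 to 0.70. Scaling to equal totals moved the median of all tumour genes from 0.03 to -0.08, while that of the members was 0.47. For CCG-1423 over vehicle, leaving out 1 library gave 3 to 4 higher, 72 to 73 lower and medians of -0.63 to -0.60. The median was -0.58 with equal totals and -0.55 with equal totals without Rn45s (chosen after seeing the data). For CCG-1423 over vismodegib those medians were -0.66 and -0.55, and leaving out 1 library gave 3 to 4 higher, 73 lower and medians of -0.62 to -0.60. For vismodegib over vehicle, higher calls were 27 with equal totals (median 0.093) and 2 in a fit of the 2 groups only (Ndufa3 and Ndufa8). Leaving out 1 library gave 0 to 1 higher (Ndufa3, without CCG-1423 replicate 1), 0 lower and medians of -0.0013 to 0.04. The cause of these shifts was not tested. A fit with a replicate block gave 3 higher and 73 lower for CCG-1423 over vehicle and 0 calls for vismodegib over vehicle and for the tumours. Depth limits the Cox6a2 and Ndufa4l2 ratios in cells, where 1 group had 4 or 5 reads, and left Cox4i2 and Cox7b2, with 1 read each in all, and Cox7a1, with 0 to 10 reads per library, untested.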
